A study of Mus musculus with 4 samples.

Results

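The genes described are 9 that take up, process and export lipid, chosen by symbol: Lpl, Cd36, Fabp5, Lipa, Npc2, Nr1h3, Abca1, Abcg1 and Apoe, out of 17676 named genes on the array. Each was measured by 1 probe set that carries its symbol alone; no source used here names the genome build of the array, so gene coordinates are left out. RNA came from microglia isolated from whole brain of male C57BL/6J mice, in 4 groups that differ in treatment and age: PBS-treated controls at postnatal day 30 (P30), their OVA-treated counterparts (the allergy group), and the same pair of treatments at P70. The labels do not spell out OVA. The cells were taken 1 day after an intranasal challenge, material of 4 samples was pooled in each group, and 1 array was hybridised per group. With 1 array per group there is no spread between replicates, so no test was made, no difference below has a replicate check, and the number of arrays limits the precision. Levels and differences are log2 intensities, and differences are OVA minus PBS or P70 minus P30. Of the 9 genes, 7 had a mean level over the 4 arrays at or above 7.18, the median of all named genes, and are called expressed; Fabp5 (mean 6.49) and Nr1h3 (mean 7.03) lay under this floor.

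Microglia, the resident macrophages of the brain, take in lipid from lipoproteins, myelin debris and dying cells. Lipid that reaches the lysosome is hydrolysed and its cholesterol is handed to the membrane, and sterols sensed by the nuclear receptors called LXR switch on genes for export. The transporters of the ABC family then load cholesterol onto apolipoprotein E, the main lipid carrier of the brain. Lipoprotein lipase (Lpl) releases fatty acids from triglycerides, Cd36 is a scavenger receptor that binds oxidised lipoproteins and long-chain fatty acids, and Fabp5 carries fatty acids inside the cell. Lipa is the lysosomal acid lipase, Npc2 the soluble lysosomal protein that binds cholesterol, and Nr1h3 encodes LXR alpha. Abca1 and Abcg1 export cholesterol, and Apoe encodes its carrier.

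Promoter windows from RefSeq (build GRCm38.p6) were found for 6 of the 9 genes: Abca1, Apoe, Cd36, Lipa, Npc2 and Nr1h3. The 250 bases before each start were searched on both strands for 4 motifs. The first was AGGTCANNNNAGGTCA with up to 3 mismatches, the direct repeat bound by LXR with its partner RXR, which 18.5% of 32851 windows of this length held. The second was the repeat bound by PPAR receptors with RXR, AGGTCA followed after 1 base by another AGGTCA, with up to 2 mismatches (3.24%). The others were the E-box CACGTG (6.02%) and the GC box GGGCGG (32.7%), both without mismatches. The windows of the 3 genes with a match are shown because Abca1 is a textbook target of LXR, Cd36 had the largest OVA difference of the group and Npc2 the largest age differences; capitals mark the matches, and no 2 of the matches overlap. Each is on the minus strand and printed 5′ to 3′ in the direction of the gene.
Abca1, chr4:53159896-53160145: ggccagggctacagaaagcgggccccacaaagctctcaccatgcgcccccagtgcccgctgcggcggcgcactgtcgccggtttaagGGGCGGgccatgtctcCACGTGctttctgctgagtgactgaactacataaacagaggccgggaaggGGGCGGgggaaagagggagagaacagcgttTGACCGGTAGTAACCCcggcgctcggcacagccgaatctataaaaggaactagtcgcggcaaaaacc
Cd36, chr5:17835897-17836146: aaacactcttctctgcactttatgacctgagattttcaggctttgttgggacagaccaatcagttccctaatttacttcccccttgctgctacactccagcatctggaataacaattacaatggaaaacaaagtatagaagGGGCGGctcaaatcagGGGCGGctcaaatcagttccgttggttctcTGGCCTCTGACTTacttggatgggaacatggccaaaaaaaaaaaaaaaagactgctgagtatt
Npc2, chr12:84773113-84773362: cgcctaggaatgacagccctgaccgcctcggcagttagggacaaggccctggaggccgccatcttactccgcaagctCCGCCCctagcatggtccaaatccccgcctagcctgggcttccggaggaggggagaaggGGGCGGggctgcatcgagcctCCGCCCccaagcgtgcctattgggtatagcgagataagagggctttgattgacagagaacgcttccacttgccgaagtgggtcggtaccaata
In Abca1 the repeat spaced by 4 lies 67 to 52 bases before the start on the opposite strand with 3 mismatches. The same window holds the E-box, 147 to 142 bases before the start, and 2 GC boxes. In Cd36 the repeat spaced by 1 lies 63 to 51 bases before the start, also on the opposite strand, with 2 mismatches, beside 2 GC boxes. Npc2 holds 3 GC boxes and none of the other 3 motifs. The windows of Apoe, Lipa and Nr1h3 held none of these letters. A match is a description of the letters and does not show that a receptor binds there.

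The arrays themselves differed in ways that bear on these genes. The highest value of an array was between 19.74 and 19.93, far above the brightest value of the 9 genes (11.43), so none lay at the upper limit. The microglial markers were bright on all 4 arrays: P2ry12 was between 13.28 and 15.65, and the summed intensity of the 11 microglial markers found lay between 600411 (OVA at P30) and 845285 (OVA at P70). Markers of neutrophils, monocytes, border-associated macrophages and choroid plexus varied more than these, those of neurons, oligodendrocytes and vessels less. The summed intensity of 10 neutrophil markers was 70755 (PBS) and 23158 (OVA) at P30 against 887064 and 754579 at P70, and that of 9 monocyte markers 2257 and 2383 against 22168 and 24945. The 14 markers of border-associated macrophages, the macrophages of the meninges and perivascular spaces, summed to 3550 and 3138 at P30 and to 4737 and 10989 at P70, PBS first. Ttr, made by the choroid plexus, read 7.45 (PBS) and 9.32 (OVA) at P30, then 7.90 and 12.02 at P70, while the 6 other choroid plexus and ependymal markers found stayed under the floor on all arrays. In such bulk RNA, more cells of a type and more RNA per cell cannot be told apart.

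**Figure D1:**
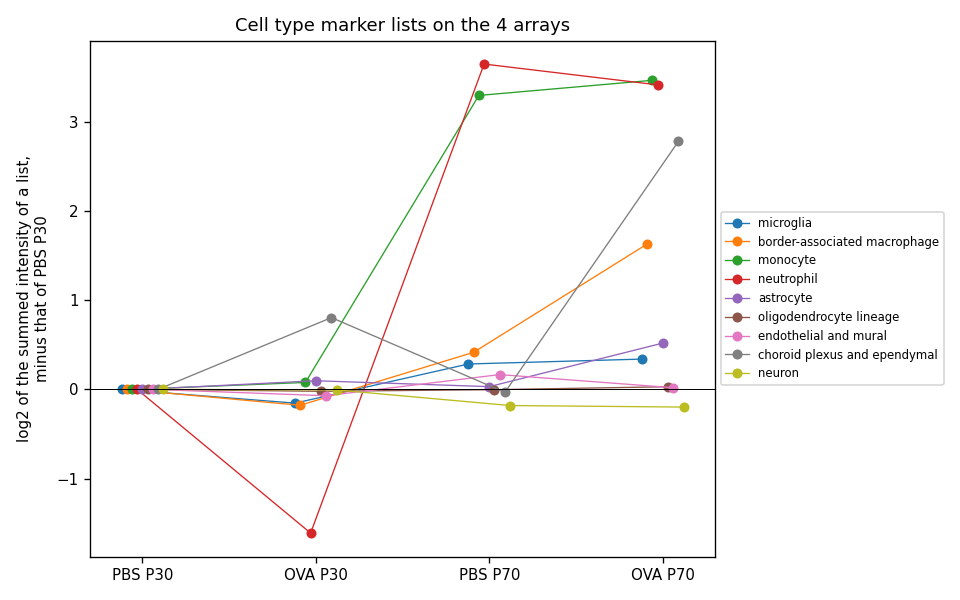
Summed intensity of each cell type marker list on the 4 arrays, as log2 minus the value of PBS at P30, 1 point per array; thin lines join the points of a list. The neutrophil list stood 3.65 above that value in PBS at P70 and the monocyte list 3.47 above it in OVA at P70, and the border-associated macrophage list stood at 1.63 in OVA at P70 against 0.42 in PBS at P70.

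Of the genes of lipid uptake, Cd36 stood apart in OVA at P70. At P30 it read 6.99 with PBS and 6.94 with OVA; at P70 it read 6.88 with PBS and 8.19 with OVA. The first 3 arrays lay within 0.11 of each other and under the floor, and the array of OVA at P70 alone lay above it. The OVA difference at P70 was 1.32, or 2.49-fold, against -0.047 at P30, which makes the 2 OVA differences 1.36 apart. Of 8838 expressed genes, 13 (Cd36 included) had an OVA difference at P70 that large, which is 0.147% of them. Among the 2200 expressed genes within 0.5 of its mean level, 0.05% had a larger one. Cd36 passed the floor on its mean through the array of OVA at P70 alone, so its place among expressed genes is a description. Since the PBS level was under the floor, the size of the fold is uncertain: with 32 added to each intensity before the logarithm the difference was 1.12.

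Cd36 is also made by macrophages outside the parenchyma, monocytes and vascular endothelium. Beside its 1.32 in OVA at P70, 6 of the 11 expressed border-associated macrophage markers were at least 1.5-fold higher, against 4.04% of all expressed genes. Pf4 (1.97) and Ms4a7 (1.94) led, while 3 listed markers, Lyve1, Siglec1 and Folr2, had means under the floor. The median of the 11 was 0.59, and it came to 0.40 after quantile normalization and 0.47 after centring with lowess along the level. Of the 7 expressed monocyte markers, S100a4 (1.16) and Treml4 (0.97) were at least 1.5-fold higher and Ly6c2 differed by 0.046. Treml4 read 7.13 and 6.73 at P30, then 7.08 and 8.05 at P70, PBS first. Like Cd36, it passed the floor only through the array of OVA at P70, so its place in this count is a description. Ttr was higher by 4.12. The endothelial genes Cldn5 and Cdh5 were at most 5.52 and 6.24 on any array, under the floor. Of their list, Pecam1 (7.79 with PBS and 7.66 with OVA at P70) and Ly6c1 (10.43 and 10.27) were expressed, and the endothelial and mural markers summed to 2159 with PBS and 1950 with OVA at P70. The part that any of these cells had in the Cd36 signal was not tested.

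Lpl, too, was highest in OVA at P70, by a smaller margin. With PBS it read 7.28 at P30 and 7.33 at P70, with OVA 7.10 and 7.66, so that OVA at P70 was the highest of 4 values close to the floor. Its OVA difference was -0.18 at P30 and 0.33 at P70, and 8.40% of the 2511 expressed genes near its level had a larger difference at P70. Fabp5 was under the floor on every array, at 6.39 (PBS) and 6.51 (OVA) at P30 and at 6.47 and 6.60 at P70. These values span 0.21, and little can be read from so dim a signal.

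The lysosomal pair behaved unlike each other between treatments. Lipa read 8.87 in PBS and 8.31 in OVA at P30, then 9.60 and 9.33 at P70, lower in OVA at both ages. Its difference at P30 was -0.56, a level 1.48-fold lower, which stops short of the 1.5-fold used to count genes; 88 of the 8838 expressed genes (0.996%) lay further below 0. At P70 the difference was -0.28, or 1.21-fold lower, and 7.32% of expressed genes lay further below. With the limits set at Lipa's own 2 differences, 17 expressed genes (0.192%), Lipa included, were at or below them in both OVA comparisons. Such a count was made for no other gene of the group and is a description. Neutrophil markers were lower in OVA at P30 too, 7 of 10 by at least 1.5-fold, beside 0.905% of all expressed genes. At P70, 2 of 10 were lower by that much, beside 1.27%. The part of neutrophils in the Lipa values was not tested.

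Npc2 read 9.02 with PBS and 8.93 with OVA at P30, then 10.06 and 10.36 at P70. Both P70 values lay above both P30 values, with 2 arrays per age, as they did in Lipa, Apoe and Lpl. The treatments within an age lay close together, with OVA differences of -0.097 at P30 and 0.30 at P70. Npc2 and Lipa were at least 1.5-fold higher at P70 in both treatments, as were 26.1% of expressed genes. Npc2 had the widest range of the 9 genes, 1.44, and Lipa ranged over 1.29.

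Of the export genes, Apoe and Abca1 shared the signs of their OVA differences and Abcg1 did not. Apoe read 10.80 (PBS) and 10.64 (OVA) at P30, then 11.04 and 11.43 at P70. Abca1 read 10.99 and 10.84 at P30, then 10.84 and 11.21 at P70, PBS first. In both genes OVA was below PBS at P30 (-0.17 in Apoe and -0.15 in Abca1) and above it at P70 (0.40 and 0.37). Genes of their brightness lay the same way in the median: the median OVA difference of the 496 expressed genes near the level of Apoe was -0.068 at P30 and 0.20 at P70. At P70, 11.3% of all expressed genes had a larger difference than Apoe and 13.2% a larger one than Abca1; among genes near their level these shares were 19.96% and 22.54%.

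Abcg1 did not share this pattern. With PBS it read 8.16 at P30 and 8.32 at P70, with OVA 8.11 and 8.08, so that its OVA difference was negative at both ages (-0.051 and -0.24). At P70, 10.3% of the 3114 expressed genes near its level lay further below 0. Nr1h3 read 7.09 and 7.18 at P30, then 6.95 and 6.89 at P70, PBS first, under the floor on all arrays and within 0.29 of itself throughout.

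Astrocytes are the main source of Apoe in the brain, and their markers were checked beside it. Gfap, Aqp4, Aldh1l1 and Gja1 were under the floor on all 4 arrays, at most 6.79 for Gfap. The 10 astrocyte markers summed to 1345 and 1439 at P30 and to 1374 and 1928 at P70, PBS first. Of the list's 2 expressed members, Slc1a3 was higher in OVA at P70 by 0.70 and Ndrg2 by 0.89; border-associated macrophages, whose markers were also higher there, express Apoe too, as does the choroid plexus, of whose markers Ttr alone was expressed. The part of any of these cells in the Apoe value was not tested.

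**Figure D2:**
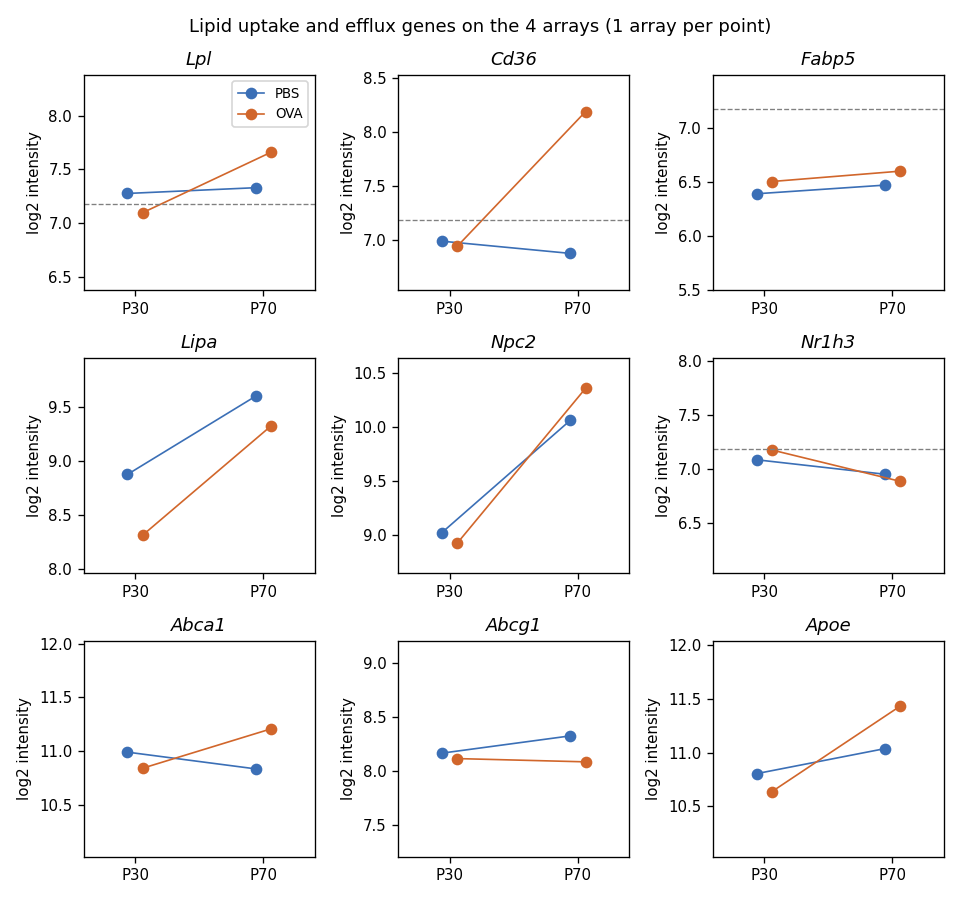
Log2 intensity of each of the 9 genes on the 4 arrays, with age on the x axis and treatment by colour; each point is 1 array, every panel spans 2 log2 units, and the dashed line is the floor of 7.18 where it falls within the panel. Cd36 leaves the other 3 arrays in OVA at P70 (8.19), and Lipa is lower in OVA at both ages. Both P70 values lie above both P30 values in Npc2, Lipa, Apoe and Lpl, and below them in Nr1h3.

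Comparing OVA with PBS at P30 asked how the allergy group stood against its control at the younger age. All 7 expressed genes of the group were lower in OVA, with a median of -0.15 and a range from -0.56 (Lipa) to -0.047 (Cd36), whereas 4743 of the 8838 expressed genes were lower and their median was -0.014. Microglial markers lay the same way, 10 of 11 lower with a median of -0.16. None reached 1.5-fold in either direction, beside 0.668% of expressed genes that far above and 0.905% that far below. Apart from Lipa, the 6 others lay inside the central 90% of expressed genes, from -0.34 to 0.28. The 2 genes under the floor were slightly higher in OVA, Fabp5 by 0.11 and Nr1h3 by 0.091.

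At P70 the same comparison gave a different picture. Of the 7 expressed genes, Cd36, Apoe, Abca1, Lpl and Npc2 were higher in OVA and Lipa and Abcg1 lower, with a median of 0.33 against 0.090 for all expressed genes. Cd36 alone was at least 1.5-fold higher, which is 1 of 7 beside 4.04% of expressed genes, and none was that much lower, beside 1.27%. Cd36 passed the floor only through the same OVA array at P70, so this 1 of 7 is a description. The other 6 lay within the central 90% of expressed genes, from -0.34 to 0.55. Bright genes were higher in OVA as a body at P70, and the scaling bears on this: of the genes past 1.5-fold, 76.1% were higher as deposited, 49.5% after quantile normalization and 50.6% after centring with lowess along the level. Both methods remove shifts shared by genes of a level, so the more even shares follow from them and do not show which scaling is right. Under the quantile scaling Apoe was at 0.17, Abca1 at 0.17, Npc2 at 0.12 and Cd36 at 1.13.

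Set side by side, 5 of the 9 genes (Apoe, Abca1, Lpl, Cd36 and Npc2), all among the 7 expressed, were below PBS at P30 and above it at P70. This sequence of signs was found in 35.1% of expressed genes. In Cd36 the difference at P30 was -0.047, between 2 values under the floor. Apart from Cd36, the 2 OVA differences were between 0.40 (Npc2) and 0.56 (Apoe) apart in these genes. The difference of the OVA differences reached 1.5-fold in 10.1% of expressed genes and in Cd36 alone of the 9. Cd36 passed the floor only through the array of OVA at P70, which also sets this value, so it is not read against that share. The signs of the OVA differences in these 5 genes were the same under each of 3 other scalings.

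**Figure D3:**
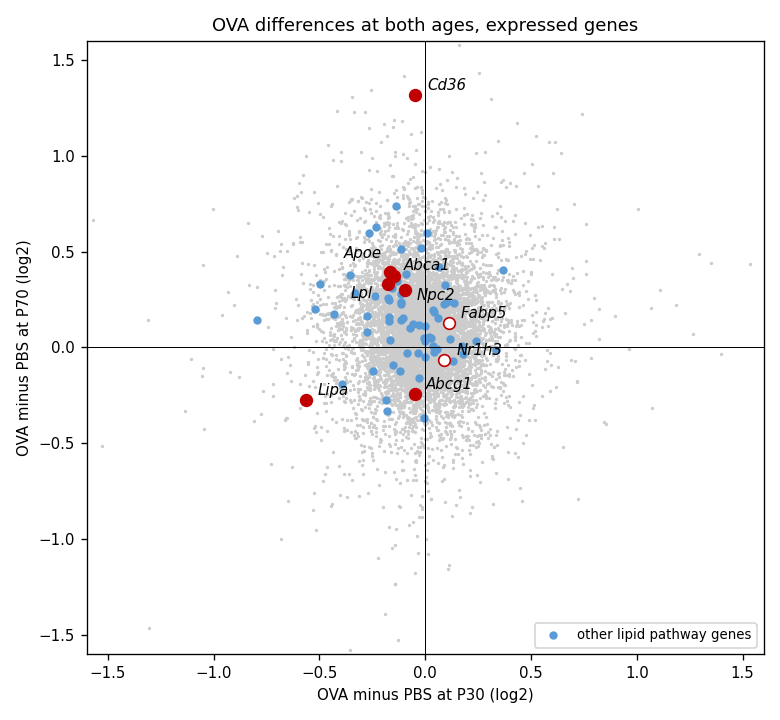
OVA difference at P30 (x axis) against that at P70 (y axis), in log2 units. Gray dots are expressed genes (20 lie beyond the axes), blue dots the other lipid genes of the lists, filled red dots the 7 expressed genes of the group and open red dots Fabp5 and Nr1h3; Cd36 stands high at P70 (1.32), Lipa far left at P30 (-0.56).

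The comparison of ages was made within each treatment, and every value in it should be read beside the neutrophil and monocyte markers, which were higher at P70. Microglial markers were higher too, with a median of 0.47 in PBS (9 of 11 above 0) and 0.70 in OVA (11 of 11); after quantile normalization these medians were -0.62 and -0.44. In PBS, Npc2 was 2.06-fold higher at P70 (1.04) and Lipa 1.66-fold (0.73); in OVA, Npc2 was 2.71-fold (1.44), Cd36 2.38-fold, Lipa 2.02-fold (1.01) and Apoe 1.73-fold higher (0.79). These are 2 of 7 expressed genes in PBS, beside 29.0% of all expressed genes, and 4 of 7 in OVA, beside 38.5%. None was at least 1.5-fold lower in either treatment, beside 3.07% of expressed genes in PBS and 4.45% in OVA. The count in PBS lies near the background share. The count in OVA includes Cd36, which passed the floor only through the OVA array at P70 that also gives its age difference. That count is therefore not read against the share, and the group is small. Lpl was 1.48-fold higher in OVA (0.56) and at 0.054 in PBS. The value of Cd36 in OVA at P70 enters both its age difference and its OVA difference.

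The age differences of bright genes depended on the scaling. As deposited, 90.4% of the genes past 1.5-fold were higher at P70 in PBS and 89.7% in OVA; after quantile normalization these shares were 54.1% and 52.4%, after lowess centring 58.5% and 56.0%. The median difference of all expressed genes, 0.25 in PBS and 0.38 in OVA, came to -0.023 and -0.027 with quantile normalization. That scaling gives all arrays 1 distribution, and lowess centring removes the trend along the level. Medians near 0 and more even shares therefore follow from the methods and do not show which scaling is right. Genes near the level of Apoe or Abca1 had a median of 0.79 in PBS, so Apoe (0.23) and Abca1 (-0.16) stood low among them: 83.3% of the genes near Apoe had a larger difference, and 6.44% of those near Abca1 lay further below 0. In OVA, Apoe was at 0.79 and Abca1 at 0.37 as deposited, and genes near the level of either had a median of 1.03. There, 63.1% of the genes near Apoe and 86.9% of those near Abca1 had a larger difference. After quantile normalization Apoe was at -0.57 in PBS and -0.29 in OVA, and Abca1 at -1.02 and -0.71, both lower at P70 in both treatments. Abcg1, at 0.16 in PBS and -0.030 in OVA, came to -0.077 and -0.31. Npc2 stayed positive under that scaling, at 0.46 in PBS and 0.68 in OVA, as did Lipa at 0.23 and 0.48 and, in OVA, Cd36 at 1.20. Among genes near its level, 19.2% exceeded Npc2 in PBS and 11.5% in OVA.

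Of the 10 neutrophil markers 9, and of the 7 expressed monocyte markers 6 in PBS and 7 in OVA, were at least 1.5-fold higher at P70, with medians of 2.91 and 1.90 in PBS and 3.77 and 2.19 in OVA. The share of all expressed genes past that fold was 29.0% in PBS and 38.5% in OVA. The monocyte marker Treml4, counted in OVA, passed the floor only through the array of OVA at P70. In OVA, 8 of the 11 expressed border-associated macrophage markers were also that much higher. Npc2 and Lipa are made by myeloid cells in general, and the part of these cells in their age differences was not tested.

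**Figure D4:**
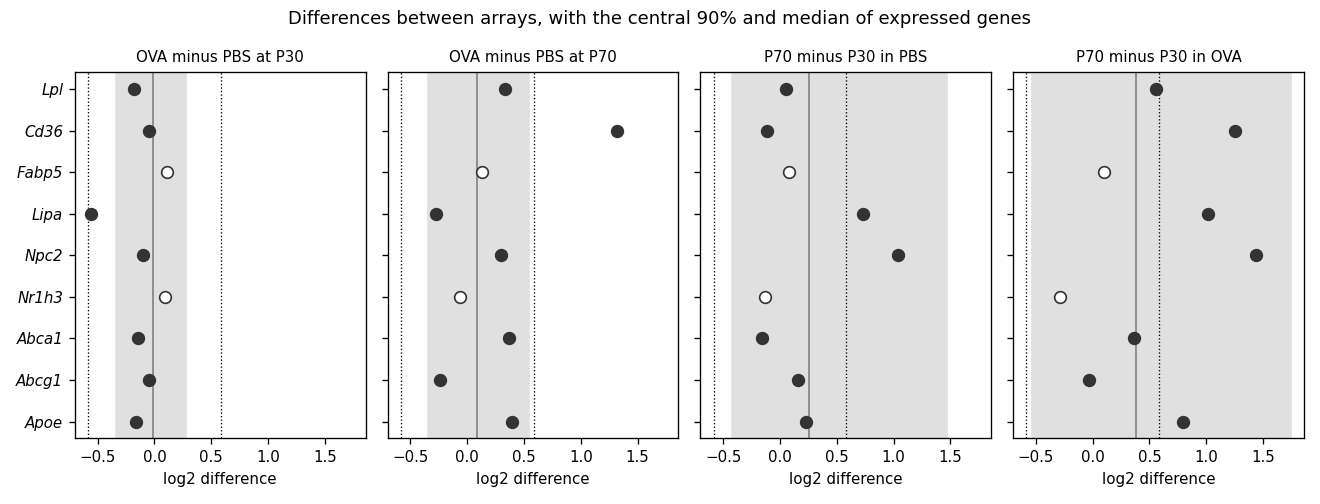
Log2 difference of each of the 9 genes in the 4 comparisons; filled points are expressed genes and open points lie under the floor. The gray band is the central 90% and the gray line the median of expressed genes, and dotted lines mark 1.5-fold; Cd36 in OVA at P70 and Lipa at P30 lie outside their bands, and the age differences lie inside the wider ones.

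Genes with the most similar course over the 4 arrays were looked up for the 3 genes that ranged over at least 1 log2 unit, by the root mean square distance between values centred on each gene's mean. For Cd36 these were Hcar2, a receptor for hydroxycarboxylic acids (distance 0.081), Zc3h6 (0.097) and Nanp (0.11). Hcar2 read 8.50 and 8.25 at P30, then 8.21 and 9.55 at P70, PBS first, again with OVA at P70 alone standing apart. For Npc2 they were Rnf115 (0.0021), Ssna1 (0.014) and Tlr3 (0.019), and for Lipa Galnt4 (0.056), Papolg (0.061) and Commd5 (0.069). The course of Npc2 was a common one, with 609 expressed genes within a distance of 0.15, against 98 for Lipa and 7 for Cd36. Likeness over 4 arrays is a description and shows no shared function.

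Other genes of lipid handling were taken from 10 lists, which name 132 genes; 110 were found and 65 were expressed. At P30, 1 of the 65 was at least 1.5-fold lower in OVA (Cd68, a lysosomal glycoprotein related to scavenger receptors, -0.80) and none was higher, beside the same background shares of 0.668% and 0.905%; their median was -0.086. At P70, 4 lay at least 1.5-fold above PBS and none that far below: Lamp1 (0.74), a membrane protein of the lysosome, Sel1l (0.63), which helps Lpl leave the endoplasmic reticulum, Mylip (0.60) and Sorl1 (0.60). Their median was 0.14, and the share of 4 in 65 lies near the background of 4.04%. Mylip, an LXR target that marks lipoprotein receptors for degradation, read 13.54 and 13.27 at P30, then 13.20 and 13.79 at P70, PBS first, the same order of signs as Abca1.

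Among the 4 expressed targets of LXR beyond the group, Mylip and Smpdl3a (-0.50 at P30 and 0.33 at P70) were lower in OVA at P30 and higher at P70, Mertk was at -0.0012 and 0.11, and Lpcat3 was lower at both ages (-0.12 and -0.12). The list's median was -0.19 at P30 and 0.22 at P70, and at P70 it came to 0.024 after quantile normalization and 0.059 after lowess centring. The receptors' partners Rxra, Rxrb and Ncoa1 had differences of at most 0.12 at P30, and Ncoa1 was at 0.33 at P70. Pparg and Ppara, nuclear receptors that act on Cd36 in other tissues, were under the floor on all arrays.

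Scavenger and lipoprotein receptors had a median of -0.10 at P30 and 0.31 at P70 over 8 expressed genes, the latter 0.18 after quantile normalization. Beside Cd36, Sorl1 (0.60), the endocytic Apoe receptor Lrp1 (0.52) and Cxcl16 (0.51) were the furthest above PBS at P70, and Marco was lower (-0.33). Trem2, a microglial receptor for lipids and lipoproteins, was at -0.28 and 0.079. The 8 expressed genes of fatty acid uptake and binding had medians of -0.14 and 0.16; Fabp7 (-0.52) and Acsl4 (-0.33) were furthest from PBS at P30. Fabp3 (-0.25 and -0.12) and Fabp4 (0.17 and 0.0094), relatives of Fabp5, were above the floor.

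The lysosomal list lay beside Lipa and Npc2. All 13 of its genes found were expressed, with medians of -0.16 at P30 and 0.23 at P70. Npc1, the membrane partner that takes cholesterol from Npc2, was at -0.12 and 0.23, close to the values of Npc2. Pla2g15 (-0.36 and 0.38) and Hexa (-0.24 and 0.27) turned from below to above PBS in the same way. Asah1 (-0.18 and -0.27) was lower in OVA at both ages, as Lipa was. The list's median at P70 came to 0.078 after quantile normalization and 0.091 after lowess centring.

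Of the 5 other expressed ABC transporters, Abcg2 was lower in OVA at P70 (-0.37), as its relative Abcg1 was, and Abca3 higher (0.28), with medians of -0.0048 and 0.032. The apolipoprotein list had 2 expressed genes, Clu (0.10 and 0.24) and Cd5l (0.34 and -0.014). Lipase partners had medians of 0.058 and 0.035. Genes of cholesterol storage and oxidation had medians of -0.10 and 0.012, with Cyp27a1, which makes an oxysterol that activates LXR, at -0.39 and -0.19. The 11 expressed genes of cholesterol synthesis had medians of -0.058 and 0.15, none past 1.5-fold; Ebp (-0.43) and Pmvk (0.37) were furthest from PBS at P30 and Nsdhl (0.42) at P70.

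**Figure D5:**
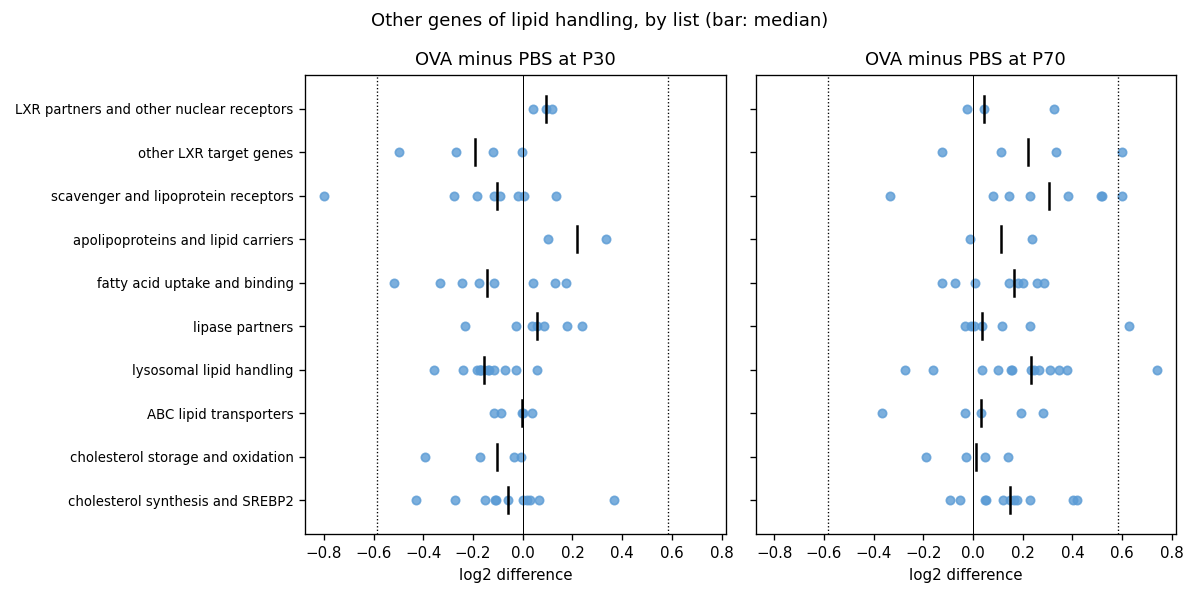
OVA differences of the 65 expressed genes of the 10 lipid lists, P30 on the left and P70 on the right; each dot is a gene, the black bar the median of its list, and dotted lines mark 1.5-fold. The scavenger receptor and lysosomal lists have medians below 0 at P30 (-0.10 and -0.16) and above 0 at P70 (0.31 and 0.23), the latter 0.18 and 0.078 after quantile normalization.

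Between ages, 15 of the 65 genes were at least 1.5-fold higher at P70 and 1 lower in PBS, and 22 were higher and 1 lower in OVA. Of all expressed genes, 29.0% were that much higher and 3.07% lower in PBS, and 38.5% higher and 4.45% lower in OVA. Smpdl3a (1.73 in PBS and 2.57 in OVA), Cd68 (1.54 and 2.48), Dbi (1.38 and 1.81) and Lamp2 (1.23 and 1.44) were among the highest; Lrp1 (-0.99) was the one lower in PBS and Marco (-0.69) the one lower in OVA. The median of the LXR target list, 0.22 in PBS and 0.42 in OVA, came to -0.76 and -0.88 after quantile normalization.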

How the data were processed

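Microglial RNA of 4 groups was measured on 1 expression array each. The deposited intensity values are linear, 1 per probe set. RMA and Affymetrix Expression Console 1.4.1 are named, without roles, per the submitters' processing notes; no source used here states how the authors scaled the arrays against one another.

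Log2 values were taken with no further normalization (Python 3.11.15, pandas 2.3.3, statsmodels 0.14.6 for lowess). Of 65956 probe sets, 30604 carry 1 gene symbol, of which 827 were updated through RefSeq's GRCm38.p6 table. Left out by class were 12688, such as predicted genes, small RNAs and receptor gene segments. The brightest probe set stood for each of 17676 genes, and 8838 had a mean at or above the median of these. Genes were counted at 1.5-fold and no test was made. The counting was checked on simulated data, with changes of 1 log2 unit put into the PBS profile at P30. That simulation held no shift between arrays that varied with the level.

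All 9 genes are named, and of each list the count past 1.5-fold, up to 3 expressed genes with the largest difference in each OVA comparison and up to 2 of the brightest; other names were chosen after their values were seen. The members and lists were chosen with earlier results of these data known. Alternatives covered scaling, the filter, the fold, the probe set choice and an added constant.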

Additional observations from a re-analysis of the deposited data

Results flagged for a closer look

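The OVA difference of Cd36 was of opposite sign at the 2 ages, -0.047 at P30 and 1.32 at P70, and 1.36 apart in log2 units. Each is a difference between 2 arrays, so the difference between them was not tested. It rests on 1 value, that of OVA at P70, and 10.1% of expressed genes had OVA differences at least 1.5-fold apart. Cd36 is among the expressed genes only through that same value, so it is not read against this share.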

How the results depend on the processing

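No paired analysis was possible because each group has 1 array, and no replicate could be left out. Counts of members past 1.5-fold differed in 17 of 72 recomputed cases, in 13 of them by more than 1.5 times. At P30, 1 gene (Lipa) was lower in OVA with quantile normalization and 1 at the lower alternative threshold, in place of 0. At P70, the count higher in OVA was 0 under the stricter filter, which leaves out Cd36 and Lpl, and 4 at the lower threshold, in place of 1. Between ages in PBS, the count higher was 0 with quantile normalization, 0 with lowess centring and 1 at 2-fold, in place of 2; the count lower was 1 with each of the 2 scalings (Abca1) in place of 0. In OVA the count higher was 2 with each of these 2 scalings, 5 with each array centred on its median, 3 under the stricter filter, 3 at 2-fold and 6 at the lower threshold, in place of 4; the count lower was 1 (Abca1) with each of the 2 scalings in place of 0. The cause was not tested. Sign changes of called values, all between ages in OVA and given with quantile normalization and then lowess centring, were Apoe at -0.29 and -0.21, the scavenger receptor list's median at -0.12 and -0.078, and the microglial list's median at -0.44 and -0.41. Of the other member differences recomputed, 222 stayed on the same side of 1.5-fold, 6 passed it and 6 no longer did. These counts go by size and do not track the sign of values under 1.5-fold. Abca1 between ages in OVA passed it in the opposite direction, from 0.37 to -0.71 with quantile normalization and -0.64 with lowess centring. Apoe between ages in PBS went from 0.23 to -0.57 and -0.55 and counts as staying. Dim signal limits Cd36, Lpl, Fabp5 and Nr1h3.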
